A study of Homo sapiens with 12 samples.

Results

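NSF, its transcribed pseudogene NSFP1 and CANX were followed across 12 whole-transcript arrays of HuH-7, an established human hepatoma line. Their probe sets were chosen by their log2 values in these arrays, because the arrays of cells given the mimic control were the lowest of the 4 groups. They comprised 4 of the 53617 probe sets on the array: 1 named NSF, 2 named NSFP1 by the platform and shared with NSF in the study's tables, and 1 named CANX. The NSF and NSFP1 transcripts are close copies, so the signal of either could not be assigned to 1 of them. The 2 NSFP1 probe sets held identical values on all 12 arrays and were counted as 1 measurement, which left 3 different sets of values.

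Cells were transfected for 72 h, at 9 nM by the labels, with 1 of 4 synthetic RNAs carried by Lipofectamine RNAiMAX: a miRIDIAN mimic of hsa-miR-1908-5p (mimic), a hairpin inhibitor of the same miRNA (inhibitor), the hairpin inhibitor transfection control (inhibitor control) or the mimic transfection control (mimic control). Both controls were coupled to the dye Dy547. Each group had 3 arrays, 1 from each of 3 occasions on which the whole experiment was repeated, so every occasion gave 1 array of each group. All 12 arrays came from 1 cell line and each reagent class had 1 control, whose sequence is not given in the sources used here. Genes are called measured here where a probe set carries their name alone in the annotation used. Those not so named may still be on the array. Hepatocyte and hepatoma markers were present: 14 of 17 were measured, all at or above the median of all probe sets, with ALB at 12.95 and AFP at 12.98 on the log2 scale. Of 11 markers of other cells 5 were measured, between 4.60 for KRT7 and 8.30 for CD68, and 3 of these 5 (CD68, KRT19 and PECAM1) were at or above that median. Array medians lay between 4.99 and 5.15 and array SDs between 1.95 and 2.06.

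NSF encodes N-ethylmaleimide-sensitive factor, an ATPase of the AAA family. With its SNAP adaptors it pulls apart the SNARE complexes left behind after a vesicle has fused with its target membrane, which frees the SNAREs for another round of fusion. CANX encodes calnexin, a lectin chaperone anchored in the membrane of the endoplasmic reticulum (ER). Calnexin holds newly made glycoproteins that carry a single glucose on their N-glycan until they have folded, and hepatocytes, which secrete most plasma glycoproteins, depend on both the ER folding route and the vesicle traffic that follows it.

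The miRNA whose mimic and inhibitor were used is shown first, since it separates the treated groups from their controls. RefSeq places its mature form at chr11:61815209-61815229 on the minus strand of GRCh38.p14, and the capitals mark the seed, bases 2 to 8.
hsa-miR-1908-5p: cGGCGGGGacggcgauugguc

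The promoter windows of both coding genes are shown beside the low mimic control group for which both probe sets were chosen. Over the 9 arrays without mimic control, r between CANX and NSF was 0.00. This r has a limit: within groups the SD of CANX, 0.26, came largely from the occasion, and that of NSF was only 0.08. Shared regulation was not tested. RefSeq windows ran from 250 bases before to 50 bases after a transcription start, on the plus strand of GRCh38.p14. The NSF window lay at chr17:46590419-46590718 and the first of the 4 CANX windows at chr5:179698679-179698978. Capitals mark matches, on either strand, to the motifs searched: the TATA box TATAAA, the CCAAT box CCAAT, the GC box GGGCGG, the E-box CACGTG, the element TGACGTGG, and the ER stress element, written as CCAAT, 9 bases of any kind and CCACG.
NSF: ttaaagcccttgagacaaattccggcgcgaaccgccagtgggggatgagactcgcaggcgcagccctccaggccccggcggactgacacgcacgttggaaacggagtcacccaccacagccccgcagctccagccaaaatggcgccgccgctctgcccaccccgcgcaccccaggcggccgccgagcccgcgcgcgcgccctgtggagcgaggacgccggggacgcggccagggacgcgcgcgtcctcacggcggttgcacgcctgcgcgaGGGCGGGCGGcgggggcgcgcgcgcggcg
CANX: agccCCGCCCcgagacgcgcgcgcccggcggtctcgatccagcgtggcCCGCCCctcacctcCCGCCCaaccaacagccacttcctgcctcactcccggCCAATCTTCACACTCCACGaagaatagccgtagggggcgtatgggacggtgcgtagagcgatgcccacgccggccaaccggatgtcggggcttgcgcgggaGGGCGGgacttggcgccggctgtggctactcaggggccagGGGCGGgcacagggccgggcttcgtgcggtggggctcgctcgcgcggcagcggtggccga

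Both windows were rich in G and C, at 75.7% for NSF and 73.0% for CANX, against a median of 58.7% over 35116 windows. The NSF window held 2 overlapping GC boxes and no match to the other motifs. The CANX window held 5 GC boxes, 2 on the plus and 3 on the minus strand, and 1 CCAAT box at base 100 that was also the start of a match to the ER stress element. That match was present in 3 of the 4 CANX windows, which overlap, and is 1 stretch of sequence. GC boxes were found in 45% of all windows, CCAAT boxes in 34.6%, TATA boxes in 11.5%, E-boxes in 7.26%, the TGACGTGG element in 0.729% and the ER stress element in 0.0769%. These are matches of letters and were not tested for binding.

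The NSF probe set was lowest on the mimic control arrays on every occasion. Its log2 values were 9.57, 9.70 and 9.69 on the mimic arrays, 9.29, 9.39 and 9.45 on the inhibitor arrays, 9.38, 9.28 and 9.17 on the inhibitor control arrays, and 8.44, 8.52 and 8.37 on the mimic control arrays (occasions 1, 2 and 3 in each group). The highest mimic control array was 0.65 below the lowest of the other 9. In these lysates of a single line, fewer cells holding the transcript and less transcript per cell cannot be told apart. Group means were 9.65 ± 0.07 on the mimic arrays, 9.38 ± 0.08 on the inhibitor arrays, 9.27 ± 0.11 on the inhibitor control arrays and 8.44 ± 0.08 on the mimic control arrays (SD, n = 3 each). The mean of the other 3 groups was 0.99 above that of the mimic control (SE 0.10), a 1.99-fold difference. Taken singly, the mimic was 1.21 and the inhibitor control 0.83 above the mimic control. These contrasts chose the probe set and were not tested.

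The probe sets shared by NSFP1 and NSF gave the same order of groups. They read 9.25, 9.31 and 9.07 on the mimic arrays, 9.00, 9.11 and 9.06 on the inhibitor arrays, 9.11, 8.86 and 8.98 on the inhibitor control arrays, and 8.14, 8.21 and 8.07 on the mimic control arrays. The mimic control arrays lay 0.66 or more below all others. Means were 9.21 ± 0.13, 9.05 ± 0.05 and 8.98 ± 0.12 for mimic, inhibitor and inhibitor control, and 8.14 ± 0.07 for mimic control (SD, n = 3 each), so the other 3 groups averaged 0.94 (SE 0.10) above the mimic control.

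CANX had the same low group and a second feature, a level that moved with the occasion. Its values were 11.24, 11.39 and 11.72 on the mimic arrays, 11.34, 11.34 and 11.74 on the inhibitor arrays, 11.30, 11.20 and 11.81 on the inhibitor control arrays, and 10.47, 10.61 and 10.87 on the mimic control arrays. Occasion 3 gave the highest array of every group, and the mean of its 4 arrays was 11.53, against 11.09 on occasion 1 and 11.14 on occasion 2. The mimic control array of occasion 3 was still 0.34 below the lowest array of the other groups, which came from occasion 2. Means were 11.45 ± 0.25 on the mimic arrays, 11.47 ± 0.23 on the inhibitor arrays, 11.44 ± 0.32 on the inhibitor control arrays and 10.65 ± 0.20 on the mimic control arrays (SD, n = 3 each). The other 3 groups averaged 0.81 (SE 0.17) above the mimic control, or 1.75-fold.

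Set within each occasion, the differences from the mimic control were alike. For CANX the mimic was above the mimic control of its own occasion by 0.77, 0.79 and 0.86, the inhibitor by 0.87, 0.74 and 0.87, and the inhibitor control by 0.83, 0.60 and 0.94. For NSF the mimic was above by 1.13, 1.18 and 1.32, the inhibitor by 0.86, 0.87 and 1.09, and the inhibitor control by 0.94, 0.76 and 0.80. Removing the occasion mean took the pooled SD of CANX within groups to 0.07, against 0.26 without that step, while that of NSF was 0.08 either way. The SDs after that step make no allowance for the means removed and are somewhat too low. Without that step, the median SD within groups was 0.23 over probe sets at or above the median level.

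**Figure D1:**
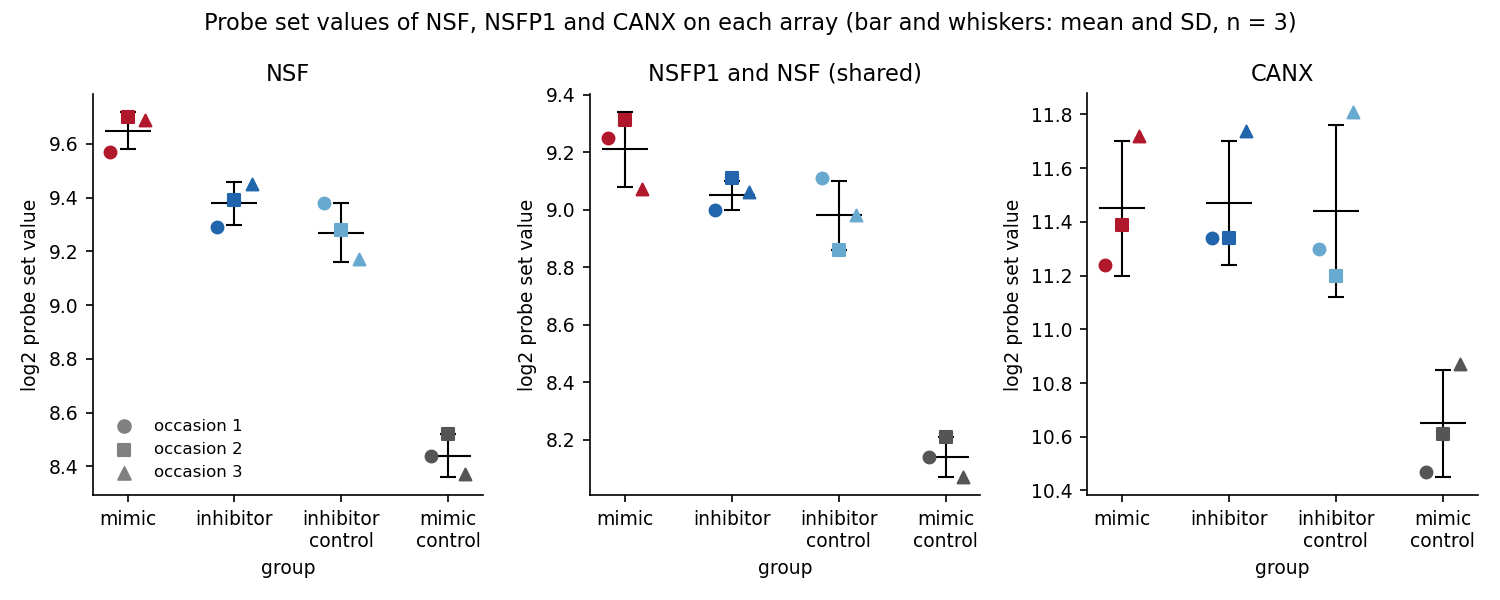
Log2 probe set values of NSF, of the probe sets shared by NSFP1 and NSF, and of CANX on each of the 12 arrays, by group, with the occasion as the marker shape and the mean and SD (n = 3) as a bar with whiskers. The y axes do not start at 0 and differ between panels. The 3 mimic control arrays lie below the other 9 in each panel, and for CANX the triangles of occasion 3 are the highest of every group.

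A low mimic control group was not particular to these genes. All 3 mimic control arrays lay below the other 9 on 399 of 53617 probe sets, 0.744%, of which 148 carry a gene name. With each value taken as its deviation from the mean of its occasion, the count was 1000, or 1.87% of probe sets, and it held all 4 probe sets described here. Ordered by the size of the difference, NSF stood 27th of the 399 and 4th of the 148, the NSFP1 probe sets 33rd and 34th, and CANX 63rd of the 399 and 15th of the 148. The same count was 451 for the mimic, 300 for the inhibitor and 148 for the inhibitor control, set beside the 399 for the mimic control. As the highest group, the mimic stood apart on 220 probe sets, the inhibitor on 264, the inhibitor control on 131 and the mimic control on 274. The median difference of the other 3 groups from the mimic control was -0.006 over all probe sets, a value that the normalization of the deposited data holds near 0.

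**Figure D2:**
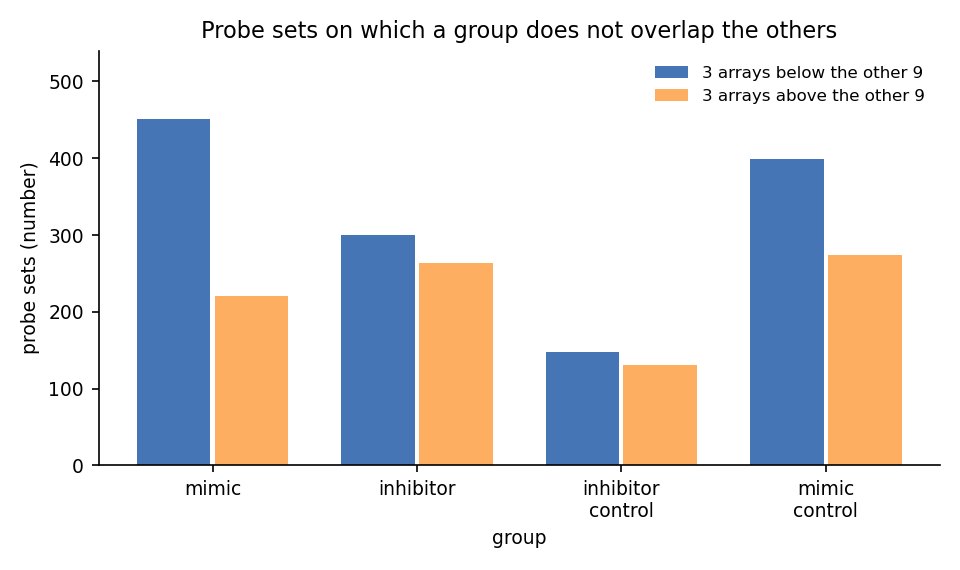
Number of probe sets on which all 3 arrays of a group lie below (blue) or above (orange) the other 9 arrays, for mimic, inhibitor, inhibitor control and mimic control. The mimic is lowest on 451 probe sets and the mimic control on 399.

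Comparisons that hold no mimic control array had no part in the choice of the probe sets and were tested with limma, with p-values adjusted over all 53617 probe sets. None of the 3 measurements passed the adjusted threshold of 0.05 in any of the 3 comparisons. Few probe sets did: 0.00746% in the mimic against the inhibitor control, 0.00373% in the mimic against the inhibitor and 0.00187% in the inhibitor against its control. At an unadjusted p under 0.05 the shares were 4.99%, 6.78% and 2.92% in the same order.

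NSF was the measurement with the widest gap among these groups. The mimic was 0.38 above the inhibitor control (95% interval 0.11 to 0.64, unadjusted p = 0.00999, adjusted p = 0.917) and 0.27 above the inhibitor (0.00 to 0.54, unadjusted p = 0.0469, adjusted p = 0.736). Its 3 mimic arrays lay above all 6 arrays of the inhibitor and inhibitor control, which held for 1.35% of all probe sets. Within occasions, the mimic was above the inhibitor control by 0.19, 0.42 and 0.52 and above the inhibitor by 0.28, 0.31 and 0.23. The inhibitor and inhibitor control overlapped, with a difference of 0.10 (-0.16 to 0.37, adjusted p = 1) that was 0.05 without the inhibitor control array of occasion 3.

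The probe sets shared by NSFP1 and NSF had smaller differences in the same direction. The mimic was 0.23 above the inhibitor control (-0.05 to 0.50, adjusted p = 0.972) and 0.15 above the inhibitor (-0.12 to 0.43, adjusted p = 0.836). The inhibitor was 0.07 above its control (-0.21 to 0.35, adjusted p = 1). The arrays of these 3 groups overlapped one another.

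CANX was close to level among the same groups. The differences were 0.01 for the mimic against the inhibitor control (-0.43 to 0.46, adjusted p = 0.999), -0.02 for the mimic against the inhibitor (-0.47 to 0.43, adjusted p = 0.989) and 0.03 for the inhibitor against its control (-0.41 to 0.48, adjusted p = 1). These intervals come from a fit with no term for the occasion, with which CANX moved. With the occasion as a block the SE was 0.11, against 0.20 without it, and the intervals were -0.24 to 0.27, -0.27 to 0.23 and -0.22 to 0.29 in the same order.

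**Figure D3:**
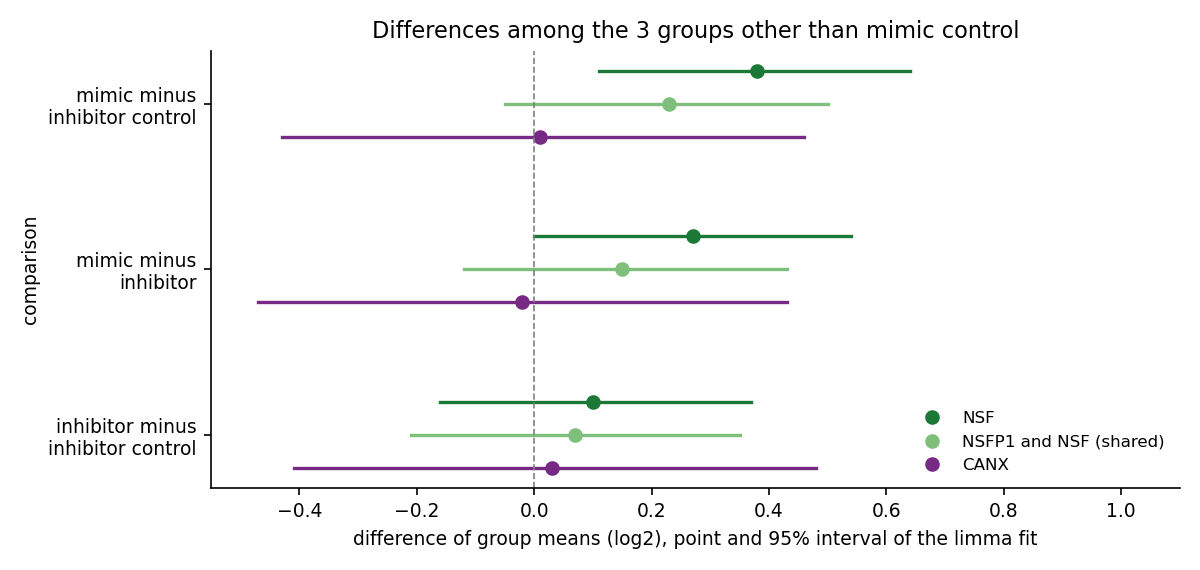
Differences of group means on the log2 scale (x axis) in the 3 comparisons that hold no mimic control array (y axis), for NSF, the probe sets shared by NSFP1 and NSF, and CANX, with 95% intervals from the limma fit. The NSF interval for the mimic minus the inhibitor control runs between 0.11 and 0.64, and the CANX points lie between -0.02 and 0.03.

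Over all 12 arrays CANX correlated with NSF at r = 0.80, the 39th highest value among named probe sets of at least median level once NSF and NSFP1 were left out. The 12 points share the split between mimic control and the rest, for which both genes were chosen. Over the 9 arrays without mimic control, r was 0.00 between CANX and NSF and 0.74 between the shared NSFP1 probe sets and NSF.

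Probe set numbers on this array follow gene position, as 347 of 349 adjacent named pairs around NSF on chromosome 17 and 233 of 236 around CANX on chromosome 5 were in the order of the RefSeq annotation. Next to NSF the low mimic control did not continue, apart from the nearer NSFP1 probe set, which is shared with NSF and differed by 0.94. The unnamed probe set between NSF and the nearer NSFP1 probe set differed by -0.12 between the other 3 groups and the mimic control, at a mean level of 8.21. GOSR2, the next named gene, differed by 0.04, at 8.91. The 2 unnamed probe sets after NSF differed by 0.16 and 0.22. Their mean levels were 5.07 and 3.60, near or below the median of 5.03 over all probe sets, where a low group could hardly show.

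Next to CANX the low mimic control did continue, on 1 side. Between CANX and MAML1, the next named gene, lay 26 probe sets with no gene name here, and on 14 of them (53.8%, against 0.744% of all probe sets) the 3 mimic control arrays were the lowest of the 12. On deviations from occasion means these were 17 of 26 (65.4%, against 1.87%). The difference was above 0 on 23 of the 26, with a median of 0.72 and a range of -0.73 to 1.54. The 15 of them with a mean level of 10 or more, a limit chosen after the values were seen, all had differences above 0, between 0.62 and 1.26 with a median of 0.82, which is close to the 0.81 of CANX. Among the other groups the medians of these 15 were 0.07 for the mimic minus the inhibitor control (range -0.11 to 0.72) and 0.02 for the inhibitor minus its control (range -0.40 to 0.53), so single probe sets were less level than CANX. The 2 unnamed probe sets on the other side of CANX, at the lower mean levels of 5.28 and 6.47, differed by 0.17 and 0.24. RUFY1, at 6.60, differed by -0.06 and MAML1, at 5.82, by -0.17. Whether the 26 probe sets read the CANX transcript is not given in the annotation used here, and neighbouring probe sets are not independent measurements.

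**Figure D4:**
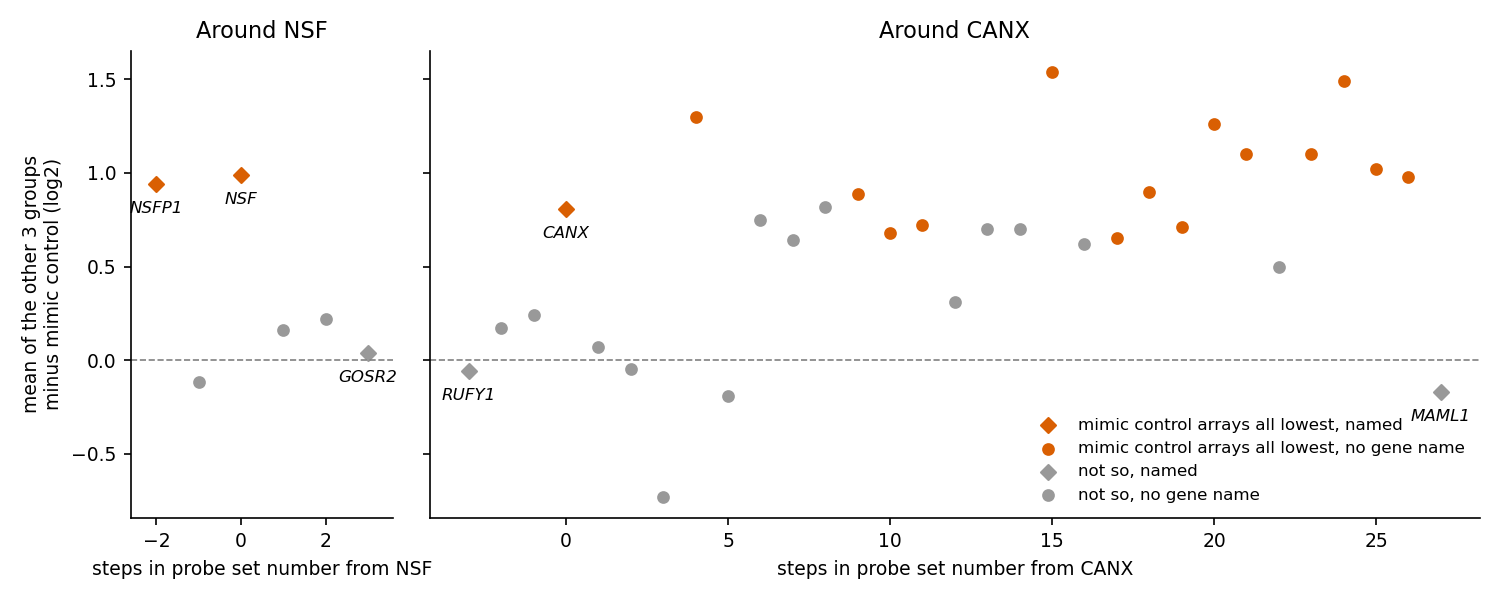
Mean of the other 3 groups minus mimic control (log2, y axis) for probe sets in order of their number around NSF (left) and CANX (right), with the x axis counting steps from each gene. Diamonds carry a gene name and circles none, and orange marks probe sets on which all 3 mimic control arrays are the lowest. Orange circles make up 14 of the 26 between CANX and MAML1, and none of those beside NSF.

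The genes most like NSF over the 12 arrays, by Pearson's r, were MMD (0.94), SFMBT1 (0.93), SARAF (0.92), TMEM263 (0.92), MLEC (0.91) and TRAPPC10 (0.91). All 6 had the mimic control lowest, which the ranking favours, since r was taken over arrays that include the mimic control values for which NSF was chosen. SARAF, an ER membrane protein that damps store-operated calcium entry, read 7.91, 7.83 and 7.96 on the mimic arrays, 7.51, 7.56 and 7.92 on the inhibitor arrays, 7.51, 7.38 and 7.78 on the inhibitor control arrays, and 6.98, 7.01 and 6.96 on the mimic control arrays. TRAPPC10, a subunit of a tethering complex of the Golgi, had the smallest difference of these 6 from the mimic control, 0.25, and MLEC the widest, 0.88.

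The genes most like CANX were OSBP (0.94), PAN2 (0.93), MRPS35 (0.92), MANF (0.91), UGDH (0.91) and CIRBP (0.91). For 4 of the 6 the mimic control arrays were the lowest, again favoured by the ranking. For MANF and UGDH they overlapped others across occasions, but were the lowest within each occasion. OSBP, a sterol-binding protein of ER and Golgi contacts, read 10.24, 10.39 and 10.73 on the mimic arrays, 10.22, 10.44 and 10.65 on the inhibitor arrays, 10.27, 10.34 and 10.78 on the inhibitor control arrays, and 9.98, 10.01 and 10.13 on the mimic control arrays. Like CANX it was highest on occasion 3 in every group. No gene was on both lists of 6.

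The SNAP adaptors of NSF (NAPA, NAPB and NAPG) were not analysed here. For none of the measured genes related to NSF, its SNARE substrates or their regulators did all 3 mimic control arrays lie below the other 9. Over all probe sets the share was 0.744%, so few such genes would be looked for in lists of this size. Of all probe sets, 48.6% were higher in the other 3 groups than in mimic control. Of 20 NSF cofactors and related AAA ATPases 13 were measured, 7 higher and 6 lower, with a median of 0.00. None passed the adjusted threshold, which 0.0187% of all probe sets did, and none had an unadjusted p under 0.05, against 2.89% of all probe sets higher and 2.29% lower. The values ranged from -0.30 for CLPB, a mitochondrial disaggregase, to 0.20 for BCS1L, a mitochondrial AAA protein needed for respiratory complex III.

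SNARE proteins, the substrates of NSF, were as level. Of 32 measured, 18 were higher and 14 lower, and the median was 0.01. None passed limma's test after adjustment, which 0.0187% of all probe sets did. None had an unadjusted p under 0.05, against 2.89% of all probe sets higher and 2.29% lower. STX12, an endosomal syntaxin, had the widest difference, 0.34 (SE 0.23). Its mimic control arrays, at 7.69, 7.36 and 6.70, overlapped the others across occasions, but each was the lowest of its own occasion. VAMP2, a vesicle SNARE, differed by 0.23 (SE 0.12) and STX5, a syntaxin of ER and Golgi traffic, by -0.23 (SE 0.14). Among 26 SNARE regulators and tethers 12 were higher and 14 lower, with a median of -0.01, a range of -0.19 to 0.09 and again none with an unadjusted p under 0.05. VPS45, which acts on endosomal syntaxins, differed by -0.19 (SE 0.14).

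The calnexin cycle held 1 gene with a similar difference. Of 13 measured genes 12 were higher and 1 lower in the other 3 groups, beside 48.6% higher of all probe sets, with a median of 0.09. Several differences were near 0, among them that of CALR, counted as higher at 0.00, and that of the 1 lower gene. None was called after adjustment (0.0187% of all probe sets were). An unadjusted p under 0.05 in limma was found for 1, higher in the other 3 groups as 2.89% of all probe sets were. That gene was MLEC, malectin, a lectin that binds diglucosylated N-glycans in the ER. Its probe set read 9.52, 9.31 and 9.39 on the mimic arrays, 9.12, 9.21 and 9.35 on the inhibitor arrays, 9.25, 9.15 and 9.49 on the inhibitor control arrays, and 8.65, 8.37 and 8.28 on the mimic control arrays. The mimic control arrays were the lowest, by a mean of 0.88 (SE 0.12, unadjusted p = 1.35e-05, adjusted p = 0.0537), and a second MLEC probe set differed by 0.91. MLEC was also among the 6 genes most like NSF, so it was not a gene picked without regard to this pattern.

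CALR, the soluble counterpart of calnexin that binds the same sugars, did not share the low group. Its values were 11.99, 12.14 and 12.68 on the mimic arrays, 12.03, 12.23 and 12.71 on the inhibitor arrays, 12.11, 12.12 and 12.70 on the inhibitor control arrays, and 12.13, 12.15 and 12.62 on the mimic control arrays. Like CANX it was highest on occasion 3 in every group, yet the difference of the other 3 groups from the mimic control was 0.00 (SE 0.21, adjusted p = 1). PPIB, an ER prolyl isomerase, differed by 0.30 (SE 0.16) and MOGS, the glucosidase that trims the outermost glucose, by 0.24 (SE 0.11). PDIA3, the disulphide isomerase that works with calnexin, was not analysed here.

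Among 18 measured ER chaperones and genes of the unfolded protein response 14 were higher and 4 lower, beside 48.6% higher of all probe sets. The list median, 0.21, was the highest of the lists, against -0.006 over all probe sets. None passed after adjustment, which 0.0187% of all probe sets did. With an unadjusted p under 0.05, 1 of 18 was higher in the other 3 groups, beside 2.89% of all probe sets. This was MANF, a secreted ER stress protein, with 6.86, 6.95 and 7.54 on the mimic arrays, 6.76, 7.05 and 7.58 on the inhibitor arrays, 6.87, 6.74 and 7.38 on the inhibitor control arrays, and 6.18, 6.27 and 6.97 on the mimic control arrays. Its difference was 0.60 (SE 0.23, unadjusted p = 0.0248, adjusted p = 0.862). The groups overlapped across occasions, but within each occasion the mimic control array was the lowest. The same held for HYOU1, SDF2L1, ATF6, ERN1 and TRIB3, whose levels also moved with the occasion. The p-values above came from a fit with no term for the occasion. In limma with the occasion as a block the adjusted p of MANF was 0.108 and that of HYOU1 0.255. No gene of this list was under 0.05 in that fit. CRELD2, another ER stress protein, differed by 0.43 (SE 0.20), DDIT3, a transcription factor of the ER stress response, by 0.53 (SE 0.31) and TRIB3, a pseudokinase induced by ER stress, by 0.47 (SE 0.25). These were named for their low p in this same contrast. The 4 lower genes were EIF2AK3 (-0.16), ERO1A (-0.06), DERL1 (-0.04) and ATF4 (-0.02). HSPA5 and HSP90B1 were not analysed here.

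Glycoproteins enter the ER through the ER translocon and oligosaccharyltransferase. Here 19 of 26 measured genes were higher, beside 48.6% of all probe sets, and 7 lower, with a median of 0.05. None was called after adjustment, as 0.0187% of all probe sets were. The 1 gene of 26 with an unadjusted p under 0.05 was lower in the other 3 groups, as 2.29% of all probe sets were: SRPRA, a subunit of the signal recognition particle receptor, at 9.27, 9.30 and 9.48 on the mimic arrays, 9.62, 9.59 and 9.68 on the inhibitor arrays, 9.51, 9.40 and 9.64 on the inhibitor control arrays, and 9.90, 9.78 and 9.61 on the mimic control arrays. The difference was -0.26 (SE 0.11, unadjusted p = 0.0312, adjusted p = 0.888).

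Genes that lie near NSF and CANX on their chromosomes were also counted. Of 14 measured 6 were higher and 8 lower, with a median of -0.04. None had an unadjusted p under 0.05, against 2.89% of all probe sets higher and 2.29% lower. The mimic control arrays were the lowest for 1 of the 14, beside 0.744% of all probe sets. This was MRNIP, at 6.10, 6.11 and 6.12, and the difference there was 0.26 (SE 0.12, adjusted p = 0.964). The lowest of its other arrays, inhibitor control on occasion 1, read 6.13, so the mimic control was barely apart. SQSTM1, the autophagy receptor p62, lies near CANX and differed by 0.23 (SE 0.11), and MAPT, near NSF, by -0.10 (SE 0.11).

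**Figure D5:**
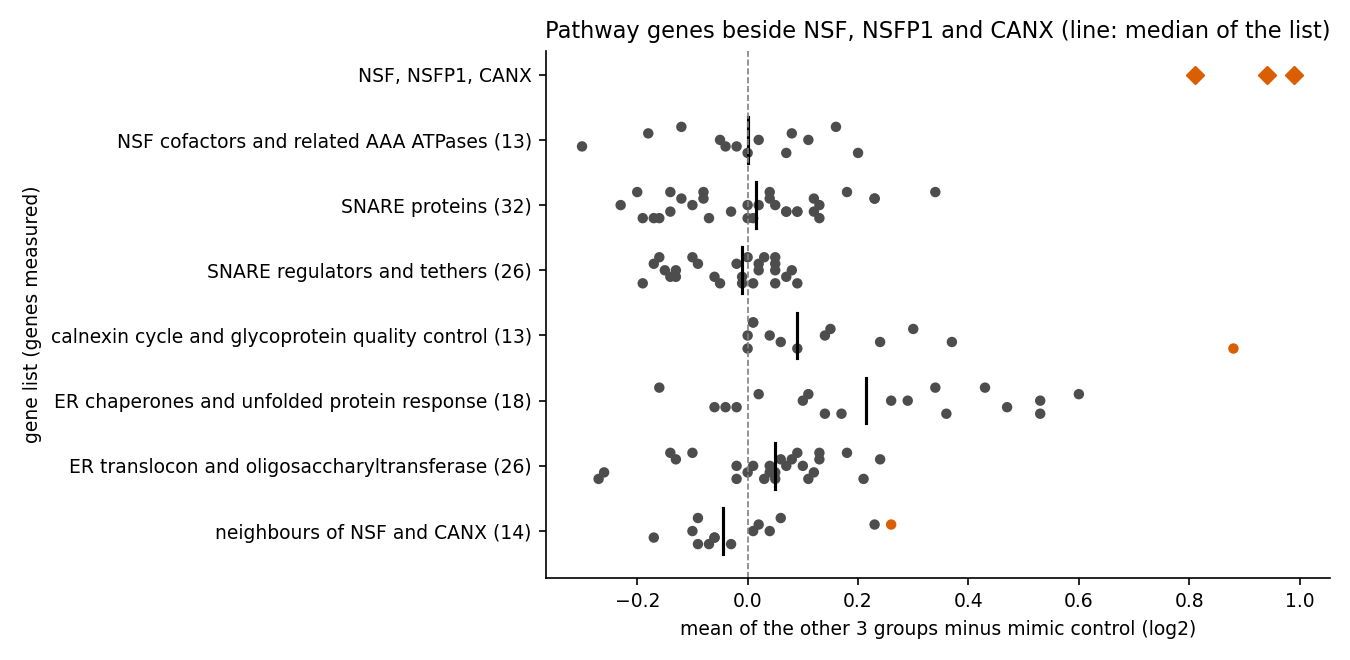
Mean of the other 3 groups minus mimic control (log2, x axis) for NSF, the probe sets shared by NSFP1 and NSF, and CANX (diamonds) and for every measured gene of 7 lists (circles), with the list median as a vertical line and orange for genes on which all 3 mimic control arrays are the lowest. NSF, NSFP1 and CANX lie between 0.81 and 0.99, and 1 circle, MLEC at 0.88, lies among them.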

How the data were processed

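Total RNA of 12 HuH-7 cultures was labelled with biotin and hybridised to Affymetrix HuGene 2.0 ST arrays. The authors used Affymetrix Expression Console to summarise each probe set as a normalized log2 value. For its version, its normalization settings and the genome build nothing is given in the sources used here. The deposited log2 values were analysed as they stood and all 53617 probe sets were kept. Such values compress low signals, and the number of arrays, not a read depth, limits their precision. The platform annotation names 16098 probe sets and RefSeq tables of GRCh38.p14 gave chromosomes, promoter windows and the miRNA.

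A linear model of 4 group means was fitted to the 12 arrays with limma (version 3.58.1, R 4.3.3), and p-values were adjusted by the Benjamini-Hochberg method across the whole array. The model was tested on simulated data. The genes described and the gene lists were chosen with earlier results of these data known. Contrasts with mimic control chose NSF, NSFP1 and CANX, so these are described there without a test. The groups of list genes were counted with the brightest probe set standing for a gene. Text names were limited to the members, direct partners, up to 4 genes per list with the lowest unadjusted p against mimic control, and the 6 genes with the highest Pearson's r with NSF and with CANX among named probe sets at or above the median level. The lower genes of the ER chaperone list, and those with the mimic control lowest within each occasion, were named in addition. Tables were summarised in Python 3.11.15 with pandas 2.3.3.

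The labels do not say whether arrays of 1 group came from separately handled stocks, so p-values measure the spread between these arrays. Replicate numbers mark the occasion by the series' own design, so they pair arrays across groups. Deviations from group means correlated with a median r of 0.24 (range -0.01 to 0.44) in 18 pairs of the same number and -0.14 (-0.46 to 0.28) in 36 pairs of different number and group. Alternatives were a replicate block, a further quantile normalization, arrays shifted to the same median, the brighter probe sets alone, models of the compared arrays alone, an intensity trend with a robust prior, and leaving out each array or occasion.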

Additional observations from a re-analysis of the deposited data

How the results depend on the processing

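Of 375 values of NSF, the shared NSFP1 probe sets and CANX under alternatives, 360 kept their direction, and those that were tested stayed on the same side of the threshold. All 62 of each measurement in contrasts with mimic control, which were not tested, kept their direction. The 15 that turned sign, 14 of CANX and 1 of NSFP1, were in contrasts without mimic control, where the values were near 0. CANX became -0.0111 for mimic against inhibitor control with a common median and 0.0233 for mimic against inhibitor with quantile normalization again. Leaving out 1 array or occasion, CANX ranged from -0.12 to 0.20 for mimic against inhibitor control, from -0.16 to 0.11 for mimic against inhibitor and from -0.10 to 0.22 for inhibitor against its control, and NSFP1 from -0.0136 (without occasion 2) to 0.16 in that comparison. For inhibitor against its control NSF ranged from 0.01 to 0.20. NSF ranged from 0.30 to 0.47 for mimic against inhibitor control, with adjusted p between 0.407 (with the replicate block) and 1 over all alternatives.

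Over all probe sets, counts past the adjusted threshold were small and moved. With the replicate block they were 7 against 4 without it for mimic against inhibitor control, 5 against 2 for mimic against inhibitor, 0 against 1 for inhibitor against its control, 25 against 10 for the other 3 groups against mimic control, 24 against 8 for mimic against mimic control and 11 against 2 for inhibitor control against mimic control. The block changed no call of NSF, NSFP1 or CANX. In the same order of comparisons, leaving out dim probe sets gave 10, 3, 0, 19, 26 and 10, and the intensity trend with a robust prior gave 4, 3, 0, 19, 14 and 5. A common median gave 4 for each of the last 2 comparisons, and quantile normalization again gave 0 for the last. Models of the compared arrays alone gave 0 for mimic against inhibitor, inhibitor against its control, mimic against mimic control and inhibitor control against mimic control, and could not differ for the contrast that uses all arrays. Leaving out 1 array or occasion, the counts ranged from 0 to 9, 0 to 3, 0 to 2, 0 to 11, 0 to 3 and 0 to 1. Probe sets with mimic control lowest numbered 1000 on deviations from occasion means. The causes were not tested. The 3 arrays a group limit the precision to the printed intervals.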
